A study of Mus musculus and Bos taurus with 6 samples.

Results

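The 7 loci described here are those of Amh, Ptgds, Sox8, Dmrt1, Gata4, Wt1 and Fgf9, genes of the Sertoli cell lineage and of early gonad development in the mouse. Their SOX9-bound regions were taken from the mouse peak list as all peaks whose midpoint lay within 100 kb of an approximate gene start in build mm9. This gave 12 of the 6419 mouse peaks, in a series that holds 18407 peaks over the mouse and bovine lists. The mouse list stands for 2 SOX9 ChIP-seq libraries and 1 input library (chromatin DNA without immunoprecipitation). They were made from the gonads of swiss OF1 mouse fetuses at E13.5, labelled as testis. The tissue was fixed with disuccinimidyl glutarate, which links proteins to each other, before formaldehyde, and its chromatin was precipitated with a rabbit antibody against SOX9. Because whole gonads were crushed, the list does not separate Sertoli cells from the other cells of the testis. It holds no expression values with which the tissue could be checked. Whether fetuses were pooled is not given in the sources used here.

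SOX9 is an HMG-box transcription factor that bends DNA in the minor groove and directs the supporting cells of the XY gonad to become Sertoli cells. In the fetal gonad, Wt1 and Gata4 encode transcription factors that act early, before and around the onset of testis determination. Fgf9 encodes a secreted growth factor that helps to keep Sox9 active, and Ptgds encodes prostaglandin D synthase, whose product acts in the same sense. Sox8 encodes a close relative of SOX9, and Dmrt1 a DM-domain factor that holds the Sertoli fate later in life. Amh encodes the hormone of Sertoli cells that makes the Müllerian ducts regress, and is the textbook target of SOX9.

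Of the 7 genes, 6 had at least 1 SOX9 peak within 100 kb and 1, Sox8, had none. Over the same 5 chromosomes (2, 10, 14, 17 and 19), 34.6% of all 200 kb windows held at least 1 peak. Gata4, Fgf9 and Ptgds had 3 peaks each, a count reached by 5.12% of windows, and Amh, Dmrt1 and Wt1 had 1 each. With peaks less than 500 bp apart merged, Fgf9 kept 3, and Gata4 and Ptgds had 2 each. At Wt1, Dmrt1, Gata4 and Fgf9 a peak midpoint lay within 1 kb of the given start, and at Amh the nearest lay 2.09 kb away. At Ptgds no peak came nearer than 40.5 kb.

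The windows that served as background were all those centred at multiples of 10 kb between the first and the last peak of a chromosome, 56663 in all. They held 0.569 peaks on average, with a median of 0 and a maximum of 8. Taking for each gene the mean of its own chromosome, 7 windows would hold 3.97 peaks in sum, and 2.4 of the 7 would hold at least 1. The 12 peaks counted were 3.02 times that sum (1.56 to 5.27 from the exact 95% Poisson interval of the count, 6.2 to 21.0). That interval covers counting error only and treats peaks as independent, although neighbouring peaks are not. The windows also include stretches without genes and sequence to which reads cannot be mapped. The counts of windows placed on other gene starts were not computed, so how far these values are particular to these 7 genes was not tested.

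**Figure D1:**
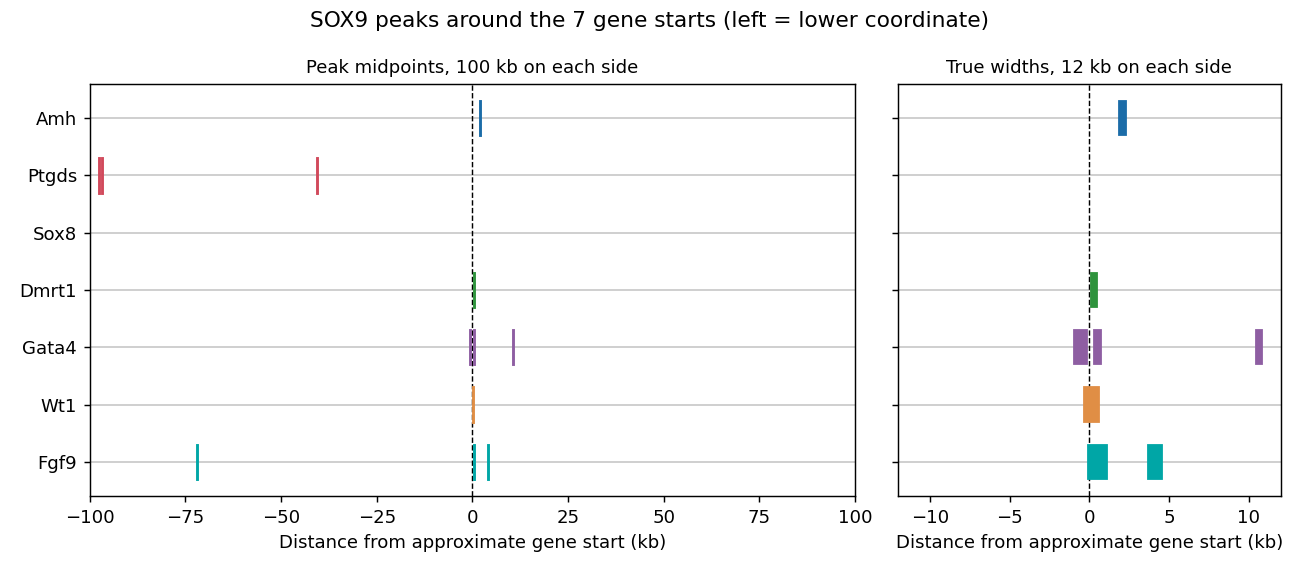
Positions of the 12 SOX9 peaks relative to the approximate start of each gene (dashed line), in kb along the chromosome. The left panel marks midpoints over 100 kb on each side and the right panel draws peaks at their true width over 12 kb on each side; 8 of the 12 peaks lie within 11 kb of a start and the Sox8 row is empty.

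Wt1, which encodes the zinc-finger factor of the early gonad and of Sertoli cells, had a single peak, which covered the given start. The peak ran on chromosome 2 from 104966641 to 104967604 (mm9), was 964 bp wide, and its midpoint lay 122 bp from the given start. Of scanned positions on chromosome 2, 0.577% had a peak midpoint within 1 kb. The region around it was otherwise empty. The next peaks lay 384 kb away on the side of lower coordinates and 875 kb away on the other. Of all mouse peaks, 91.8% had a closer neighbour than this one. In the gene table Wt1 lies between Eif3m and Them7, with 1 further protein-coding gene within 100 kb of the gene's ends. A count of 1 peak is not unusual for chromosome 2, where 36.9% of windows held at least 1.

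Dmrt1, the DM-domain factor, showed the same arrangement with a much narrower peak. Its only peak lay on chromosome 19 from 25580117 to 25580497, with the midpoint 307 bp from the given start. At 381 bp it was among the narrowest of the list, with 0.358% of mouse peaks narrower. The gaps to the next peaks were 268 kb and 1100 kb. Chromosome 19 was the densest of the 5 chromosomes, with 0.814 peaks per window, and 45.0% of its windows held at least 1 peak. Of its positions, 0.848% had a peak midpoint within 1 kb. Dmrt1 lies next to Dmrt3, another member of the DM-domain family, and to Kank1. No peak other than that near the given start fell within 200 kb.

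Gata4, which encodes a zinc-finger factor that activates Amh together with other gonadal factors, had a pair of peaks about its given start. One ran on chromosome 14 from 63863028 to 63863872 (845 bp) and the other from 63864305 to 63864715 (411 bp). Their midpoints lay 550 bp to the left and 510 bp to the right of the given start, left being the side of lower coordinates. Only 432 bp separated them, and merged they make a single region of 1688 bp. Neighbours less than 500 bp apart were uncommon in the list, and 6.47% of mouse peaks had one. The remaining peak, from 63874468 to 63874844, lay 10.7 kb to the right. Its width of 377 bp was the smallest of chromosome 14, where 0.0% of peaks were narrower. On chromosome 14, 27.3% of windows held at least 1 peak and 3.88% held 3 or more.

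Fgf9, the secreted factor, had the widest of the 12 peaks over its given start. That peak ran on chromosome 14 from 58689923 to 58691101 and was 1179 bp wide, wider than 72.7% of mouse peaks, with its midpoint 512 bp from the given start. A second peak of 858 bp, from 58693679 to 58694536, lay 4.11 kb to the right of the given start, the side towards which this plus-strand gene is transcribed. The gap between them was 2.58 kb. A further peak of 909 bp, from 58617637 to 58618545, lay 71.9 kb to the left, upstream. Beyond the peak on the right, the list was empty for 1130 kb. Fgf9 has 1 other protein-coding gene within 100 kb of its ends, and lies between Micu2 and 1700129C05Rik. As at Gata4 on the same chromosome, 3 peaks put the locus in the top 3.88% of windows. Merging peaks less than 500 bp apart left 3 at Fgf9 and 2 at Gata4.

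Amh, the hormone gene, had 1 peak, on chromosome 10 from 80269840 to 80270337. It was 498 bp wide, with 3.27% of mouse peaks narrower, and its midpoint lay 2.09 kb to the right of the given start. The gene itself measures 2440 bp in the gene table, and its neighbours there are Sf3a2 and Jsrp1. With a start known only approximately, the data do not show whether the peak lies inside Amh, at its end or beside it. No peak covered the given start. Of chromosome 10 positions, 1.19% were as near to a peak as the Amh start, and 36.3% of its windows held at least 1 peak. The next peaks fell outside the 100 kb limit, the nearer of them 124 kb away on the right and the other 149 kb away on the left.

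Ptgds, the prostaglandin D synthase gene, had 3 peaks, none of them near its start. The nearest, from 25284075 to 25284857 on chromosome 2, was 783 bp wide and lay 40.5 kb to the left. The other pair, from 25227166 to 25227703 (538 bp) and from 25227832 to 25228721 (890 bp), lay 97.6 and 96.7 kb to the left with 128 bp between them. This pair sat just inside the 100 kb limit. All 3 were on the side towards which this minus-strand gene of 3402 bp is transcribed, well past its end. On the other side the first peak lay 238 kb away. Within 50 kb Ptgds had 1 peak in place of 3. Its distance to the nearest peak was not unusual, with 19.5% of chromosome 2 positions as near or nearer. The neighbourhood is crowded, with 13 other protein-coding genes within 100 kb of the gene, the nearest being Paxx and Lcn12. Which of these genes the 3 peaks lie closest to was not analysed here.

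Sox8, the relative of Sox9, was the gene without a peak. The nearest lay 399 kb to the right, on chromosome 17 from 26105330 to 26106686 (1357 bp). On the left the nearest was a peak of 1526 bp, 1310 kb away, that ended at 24394377. The peak-free stretch around the start measured 1710 kb, the 14th longest of 235 on that chromosome, where the median was 122 kb. A window without a peak was still the usual case there, with 69.8% of chromosome 17 windows empty. Of its positions, 62.1% were as near to a peak as the Sox8 start, or nearer. For a count of 0 the exact 95% Poisson interval reaches up to 3.69 peaks. Depth and calling threshold are unknown, so the absence of a peak is not a measurement of absent binding.

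**Figure D2:**
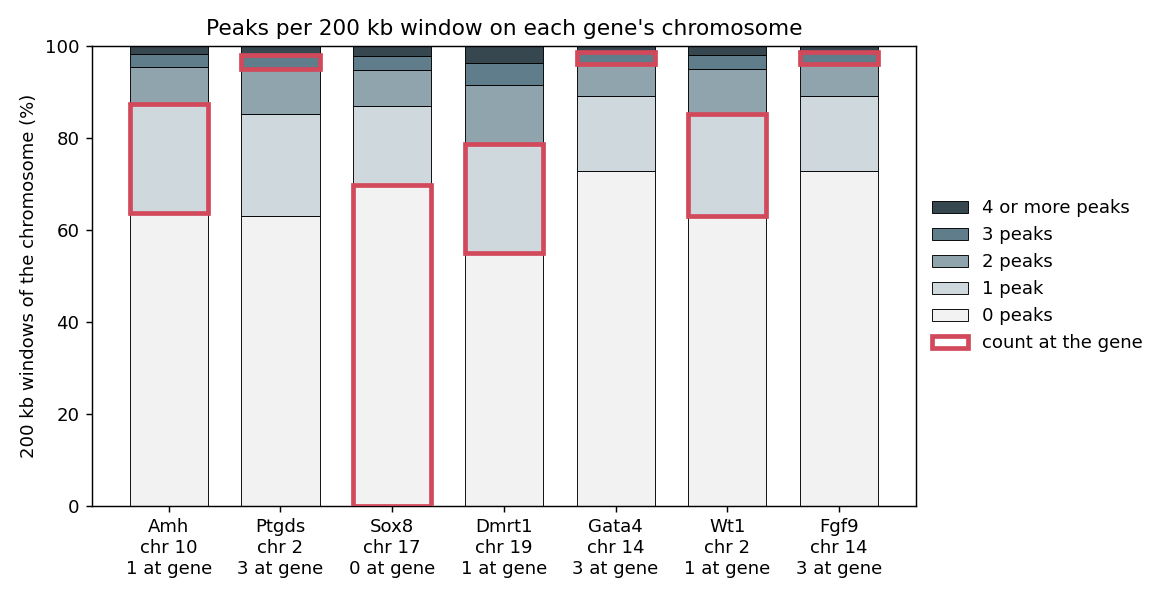
Share of all 200 kb windows on each gene's chromosome (percent) that hold 0, 1, 2, 3 or at least 4 SOX9 peaks, with the count at the gene outlined in red. Sox8 falls in the class that holds 69.8% of its chromosome's windows, and Ptgds, Gata4 and Fgf9 fall in the class of 3 peaks near the top of theirs.

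How near a peak came differed widely among the genes. Within 1 kb of the start, 4 of 7 genes had a peak midpoint, against 0.597% of positions on the same chromosomes. Within 5 kb it was 5 of 7 against 2.69% of positions, and within 50 kb 6 of 7 against 21.5%. The order from nearest to farthest was Wt1, Dmrt1, Gata4, Fgf9, Amh, Ptgds and Sox8. The first 4 distances, taken from the given starts, run from 122 to 512 bp. Since the starts are given to the nearest 1 kb at best, their order among themselves is not resolved, nor is the side of the start on which these midpoints fall. The given starts of Dmrt1 and Fgf9 are multiples of 10 kb and may be rounded more coarsely. The count within 1 kb carries the same rounding. With every given start moved 1 kb to the right it was again 4, and moved 1 kb to the left it was 1. With shifts of 5 kb it was 0 to the left and 1 to the right. The distance of 1 kb was chosen after the positions had been seen. Positions spaced evenly along a chromosome are mostly not gene starts. The 5 chromosomes carry 1627 peaks and 5397 protein-coding genes in the gene table, or 30.1 peaks per 100 genes, and what share of all gene starts has a peak this near was not tested.

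**Figure D3:**
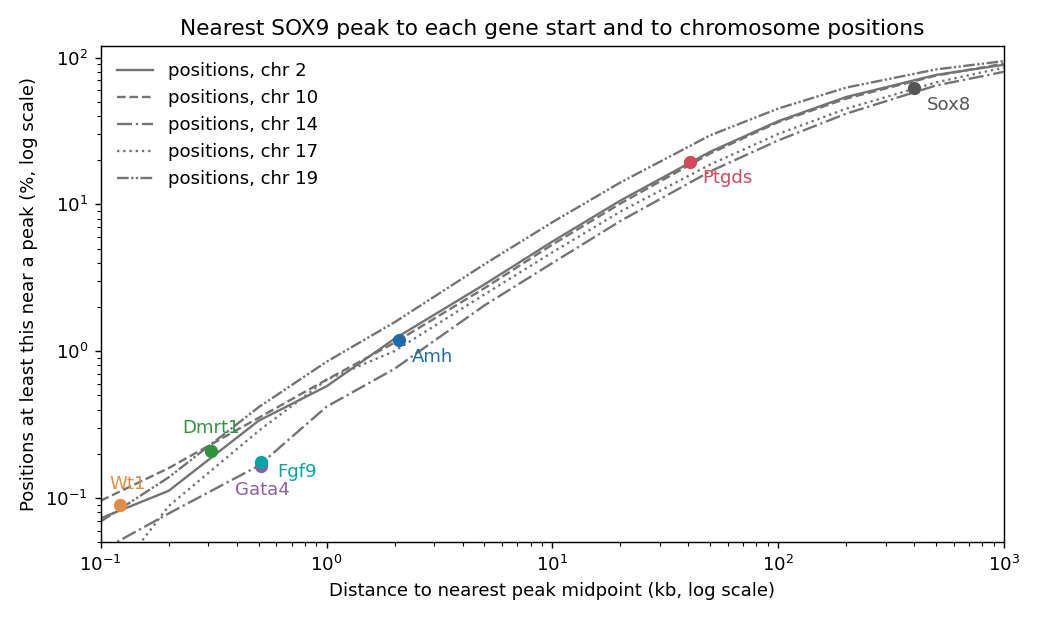
Distance from each gene start to the nearest SOX9 peak midpoint (kb, log scale) against the percent of scanned positions of that chromosome that are at least as near (log scale), with 1 grey curve per chromosome. Each point lies on the curve of its chromosome by construction; Wt1, Dmrt1, Gata4 and Fgf9 sit below 0.21%, at distances smaller than the rounding of the starts, Amh at 1.19%, Ptgds at 19.5% and Sox8 at 62.1%.

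The wider surroundings ordered the genes differently. Within 500 kb on each side, Amh and Ptgds had 10 peaks each, Gata4 8, Fgf9 7, Wt1 3, Dmrt1 2 and Sox8 1. Windows of this length averaged 2.79 peaks on chromosome 10, 2.98 on chromosome 2, 2.18 on chromosome 14, 4.04 on chromosome 19 and 2.52 on chromosome 17. As many peaks or more were found in 3.78% of such windows for Amh, 4.83% for Ptgds, 5.76% for Gata4 and 7.96% for Fgf9. For Wt1 the share was 44.5%, for Sox8 67.5% and for Dmrt1 73.6%. Dmrt1 and Wt1 therefore had a peak near the given start in surroundings with no more peaks than usual for their chromosomes. Amh, Ptgds, Gata4 and Fgf9 lay in surroundings with more peaks than most windows of their chromosomes. Of the 7 genes, Amh and Ptgds had the most neighbours, 13 other protein-coding genes each within 100 kb, more than 93.4% of protein-coding genes have. Dmrt1, Gata4 and Sox8 had 3 and Wt1 and Fgf9 1, where the median gene had 4. The part of gene number in the peak counts was not tested.

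Of the 12 peaks, 10 were narrower than the median of the mouse list and 5 fell below its lower quartile of 742 bp. Their widths ran from 377 to 1179 bp and their median was 814 bp. The median was 953 bp in the mouse list and 964 bp on the 5 chromosomes. The 5 narrowest were the peaks at Amh and Dmrt1, the 2 right-hand peaks at Gata4 and 1 of the close pair at Ptgds. The 2 wider than the median were those over the given starts of Wt1 and Fgf9, and no peak passed the upper quartile of 1212 bp. Merging peaks less than 500 bp apart left 10 regions with a median of 883.5 bp. Against the unmerged median of 953 bp, 6 were narrower and 4 wider, among the latter the merged pairs at Gata4 (1688 bp) and Ptgds (1556 bp). Merging the whole list in the same way gave a median of 982 bp, and 7 of the 10 regions were narrower than that. In the widest 50% of the unmerged list, only the peaks over the given starts of Wt1 and Fgf9 were left. Widths of the peaks within 1 kb of a start ranged from 381 bp at Dmrt1 to 1179 bp at Fgf9. Width is the only property of a peak in the list, which holds no height, fold enrichment or p-value. How strongly any of these loci was enriched was not analysed here.

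**Figure D4:**
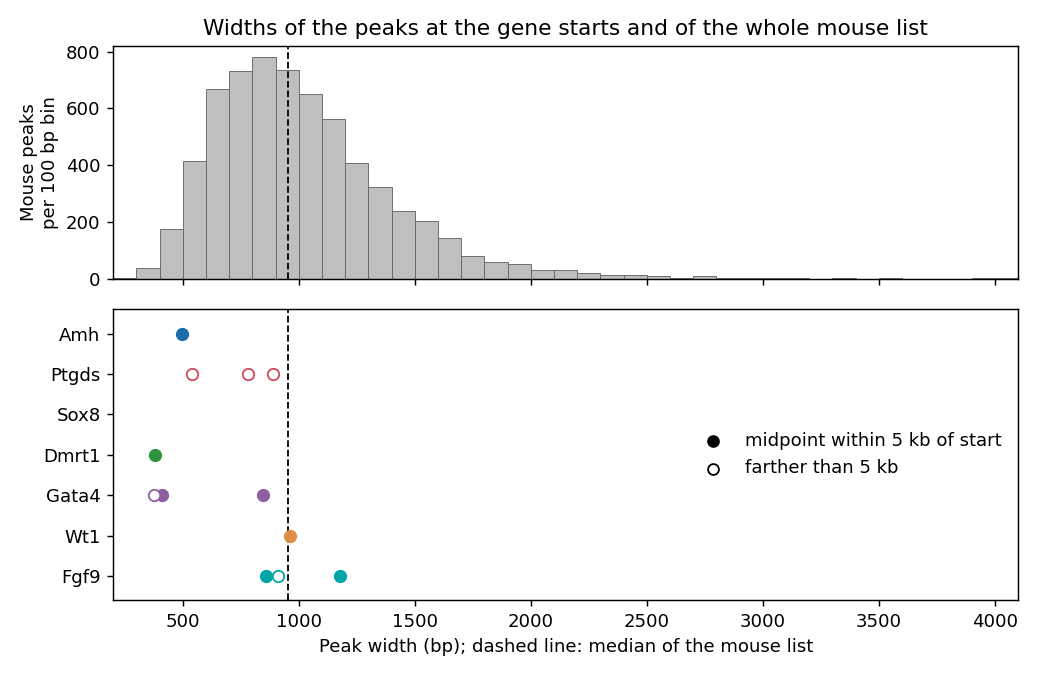
Widths in bp of all mouse SOX9 peaks (upper panel, counts per 100 bp bin) and of the 12 peaks at the 7 genes (lower panel), filled where the midpoint lies within 5 kb of the start and open where it is farther. The dashed line is the list's median of 953 bp; only the start peaks of Wt1 and Fgf9 lie to its right.

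Promoter sequence is shown for Fgf9, where a peak covered the given start, beside Ptgds and Sox8, where none did. RefSeq sequences (GRCm38.p6) matched these 3 of the 7 genes by symbol; Amh, Dmrt1, Gata4 and Wt1 were not matched. The 250 bases before a start are shown 5′ to 3′ on the gene's strand, with any match to 5 short motifs in capitals. These positions are in GRCm38.p6 and are not comparable with the mm9 positions of the peaks. They are chr14:58072436-58072685 on the plus strand for Fgf9, chr2:25469750-25469999 on the minus strand for Ptgds and chr17:25570687-25570936 on the minus strand for Sox8.
Fgf9: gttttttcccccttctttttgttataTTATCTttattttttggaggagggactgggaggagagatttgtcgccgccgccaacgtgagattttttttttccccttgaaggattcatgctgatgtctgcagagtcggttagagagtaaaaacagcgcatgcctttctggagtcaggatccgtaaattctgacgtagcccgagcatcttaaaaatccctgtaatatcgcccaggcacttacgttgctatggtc
Ptgds: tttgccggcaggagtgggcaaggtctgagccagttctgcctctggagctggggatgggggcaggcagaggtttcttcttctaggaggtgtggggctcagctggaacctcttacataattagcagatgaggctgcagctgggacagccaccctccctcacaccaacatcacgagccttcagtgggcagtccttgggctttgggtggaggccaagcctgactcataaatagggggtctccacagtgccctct
Sox8: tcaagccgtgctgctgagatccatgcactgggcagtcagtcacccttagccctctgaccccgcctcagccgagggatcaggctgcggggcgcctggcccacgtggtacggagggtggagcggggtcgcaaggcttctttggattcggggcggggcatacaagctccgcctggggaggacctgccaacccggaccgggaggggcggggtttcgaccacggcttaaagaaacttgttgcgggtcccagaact

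The motifs searched on both strands were ACAAT and ACAAAG, cores that SOX proteins recognise, AGATAA and TGATAA for GATA factors, and AAGGTCA for the nuclear receptor NR5A1. None of the 3 stretches held either SOX motif. Of 32851 RefSeq promoters cut to the same length, 27.7% held ACAAT, 16.5% held ACAAAG and 38.8% held at least 1 of them. The single match was AGATAA on the opposite strand of the Fgf9 stretch, starting at base 27 as printed, a motif present in 9.99% of promoters. TGATAA was present in 7.94% of promoters and AAGGTCA in 4.08%. The Fgf9 stretch was 44.8% G and C, that of Ptgds 58.4% and that of Sox8 65.6%, with a median of 52.4% over all promoters. These matches describe letters in the windows shown. Whether the Fgf9 peak overlaps the stretch printed was not analysed here, since the peak is placed in mm9 relative to an approximate start.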

How the data were processed

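The authors deposited 1 peak list for mouse, and the labels assign it to both SOX9 libraries and the input. Its columns are chromosome, start, end and a width in base pairs that equals end minus start throughout. The build mm9 is taken from the submitters' processing notes. How reads were aligned, peaks called and replicates pooled is not given in the sources used here, and read depth is unknown. No spread between replicates could be formed and no test was run. Peaks near 7 approximate gene starts were counted by midpoint, and all 200 kb windows at steps of 10 kb within the span of each chromosome's peaks were counted in the same way, in place of a random draw. Positions are counted from 1. Gene neighbours, lengths, strand and promoter sequence came from RefSeq tables of GRCm38.p6, with no conversion between builds. All 7 genes were named, with all of their peaks and the next peaks where there were none. The genes and settings were chosen with earlier results of these data known. The planned list of other gonadal genes was not placed, for want of an mm9 annotation here. Counting was tested on invented peaks. Python 3.11.15, numpy, pandas and scipy were used. Alternatives were other distances, merged peaks (counts and widths), the widest 50% of peaks, shifted starts and other windows. Whether peaks of these chromosomes were set aside before this work is not known.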

Additional observations from a re-analysis of the deposited data

How the results depend on the processing

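The number of genes with a peak within the distance used was 6 of 7 under 6 of the 7 alternatives tried. Of these 6, the distance of 200 kb and counting by any base could not lower it. In the widest 50% of the list it was 2, and the number of peaks fell from 12 to 2. Genes with a peak within 1 kb fell from 4 to 2 there (Wt1 and Fgf9). That alternative keeps 3213 peaks by width, which is not a score. The other alternatives gave 9 to 18 peaks. Distances of 50 and 200 kb gave 9 and 18, and windows of matching length held a peak in 21.5% and 50.4% of cases. That share was 22.9% for the widest 50%, 34.1% for windows that do not overlap and 32.3% over all mouse chromosomes. Moving the starts 10 kb right took the Ptgds count from 3 to 1, and Sox8 stayed at 0 under all 7. With starts moved 1 kb left, the 4 genes within 1 kb became 1, and with starts moved 5 kb left or right they became 0 and 1. Merging close peaks moved the median width from 814 to 883.5 bp and took the counts at Gata4 and Ptgds from 3 to 2 each. Counts within 1 kb and their alternatives were added after the data were seen. No paired analysis was possible because 1 list stands for all mouse libraries, so replicate numbers carry no values and no replicate could be left out. Unknown read depth limits every count of 0.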
